A study of Mus musculus with 2 samples.

Results

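The genes described here encode the subunits of Mediator and of its CDK8 kinase module in mouse heart. Members were taken by gene symbol (Med followed by a number, with or without a final l, plus Cdk8, Cdk19 and Ccnc), which found 33 of the 22882 symbols in each library. Every member stood on a single line of both libraries and none was listed at 0. By their place in the complex they were grouped as 12 head genes, 8 middle genes, 5 tail genes, 7 kinase module genes and Med14, the scaffold that joins the others.

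The study asked which genes change in the heart when cardiomyocytes lose Med1. Whole hearts were taken from csMed1-/- mice, in which Cre recombinase under the α-myosin heavy chain (α-MyHC) promoter deletes the floxed Med1 allele in cardiomyocytes from late gestation on, and from Med1fl/fl littermates, which carry the same floxed allele. All mice were 23 days old, of mixed sex and on the C57BL6/J background, and neither group was treated. RNA of 5 hearts was pooled per genotype and sequenced as 1 library, so there are 2 libraries and no replicates. Whether the Med1fl/fl mice also carried Cre is not given in the sources used here. Fibroblasts, endothelial cells and other cells of the heart keep an intact Med1 gene in this model. No difference below could be set against the spread between hearts or between libraries, so the genotypes were compared by their values alone.

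Mediator is the large complex that carries signals from DNA-bound activators to RNA polymerase II. Its head and middle modules contact the polymerase, its tail is the main landing site of activators, and its kinase module (cyclin C with Cdk8 or Cdk19, a Med12 protein and a Med13 protein) binds reversibly and, when bound, keeps the polymerase away. In the heart, Mediator is known for Med1 as a partner of nuclear receptors that drive fatty acid oxidation, for Med13 as a regulator of energy use under the control of a heart-restricted microRNA, and for Med12 and Med30, whose loss or mutation in mice causes dilated cardiomyopathy.

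The 3 exons removed in csMed1-/- cardiomyocytes are shown here because they are the lesion behind the comparison. They are exons 8 to 10 in the numbering of the study, taken to be that of the annotation. Each is written 5′ to 3′ on the sense strand, from the minus strand of chromosome 11 (GRCm38, GENCODE M21 annotation).
Med1 exon 8 (chr11:98171696-98171770): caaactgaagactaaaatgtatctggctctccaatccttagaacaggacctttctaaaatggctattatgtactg
Med1 exon 9 (chr11:98170948-98171021): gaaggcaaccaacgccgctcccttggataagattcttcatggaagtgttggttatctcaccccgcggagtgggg
Med1 exon 10 (chr11:98169363-98169452): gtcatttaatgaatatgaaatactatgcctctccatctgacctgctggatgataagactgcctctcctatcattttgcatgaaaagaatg
The exons are coding, with their first bases at positions 501, 576 and 650 of the reading frame. They touch codons 167 to 247 of 1575. A transcript in which exon 7 is joined to exon 11 would keep 166 whole codons, change frame and reach a stop after 13 further codons. The 2 LXXLL motifs, the short helices by which Med1 binds nuclear receptors, begin at residues 604 and 645, both downstream of the floxed exons. Only 2.98% of the 8024-base transcript lies in these exons, while the last exon (exon 17, with 6315 bases) holds 78.7%. FPKM (fragments per kilobase of transcript, relative to the mapped fragments of the library) is counted over the whole gene, so a shortened Med1 RNA, if stable, would still be counted, and the share of the remaining signal that came from such RNA or from cells with an intact gene cannot be told apart.

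Med1 was the member with the lowest csMed1-/- to Med1fl/fl ratio. Its level was 3.38 FPKM in Med1fl/fl and 0.412 FPKM in csMed1-/-, which gives a log2 ratio of -3.04, at the 1.80th percentile of the log2 ratios of all genes analysed. From place 24 among the 33 members by level it moved to place 31. Of the members, only cyclin C (Ccnc) and Med12l were lower than Med1 in the csMed1-/- library. A gene was analysed if neither library listed it at 0 and its higher value was 1 FPKM or more, as held for 10489 genes, and a gene was counted as higher or lower only past 2-fold.

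The rest of the complex showed smaller differences. Of the 33 members, 29 were analysed. The remaining 4 (Ccnc, Cdk8, Med12l and Med13, all of the kinase module) were below 1 FPKM in both libraries. Past 2-fold, 2 members were lower in csMed1-/- heart (Med1 and Med16) and 2 were higher (Med7 and Med15). Among all genes analysed, 18.0% were past 2-fold lower, 13.6% past 2-fold higher and 31.5% past it in either direction. The other 25 members (86.2%) lay within 2-fold, against 68.5% of all genes analysed, and 18 of them lay within 1.5-fold. Med16 (log2 ratio -1.01) and Med7 (1.02) lay just past the threshold, while Med25 (0.96), Cdk19 (-0.94) and Med10 (0.93) lay just short of it. With ratios centred on the median of all genes, 1 member was past 2-fold lower and 3 were higher, as Med16 left the count and Med25 entered it.

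**Figure D1:**
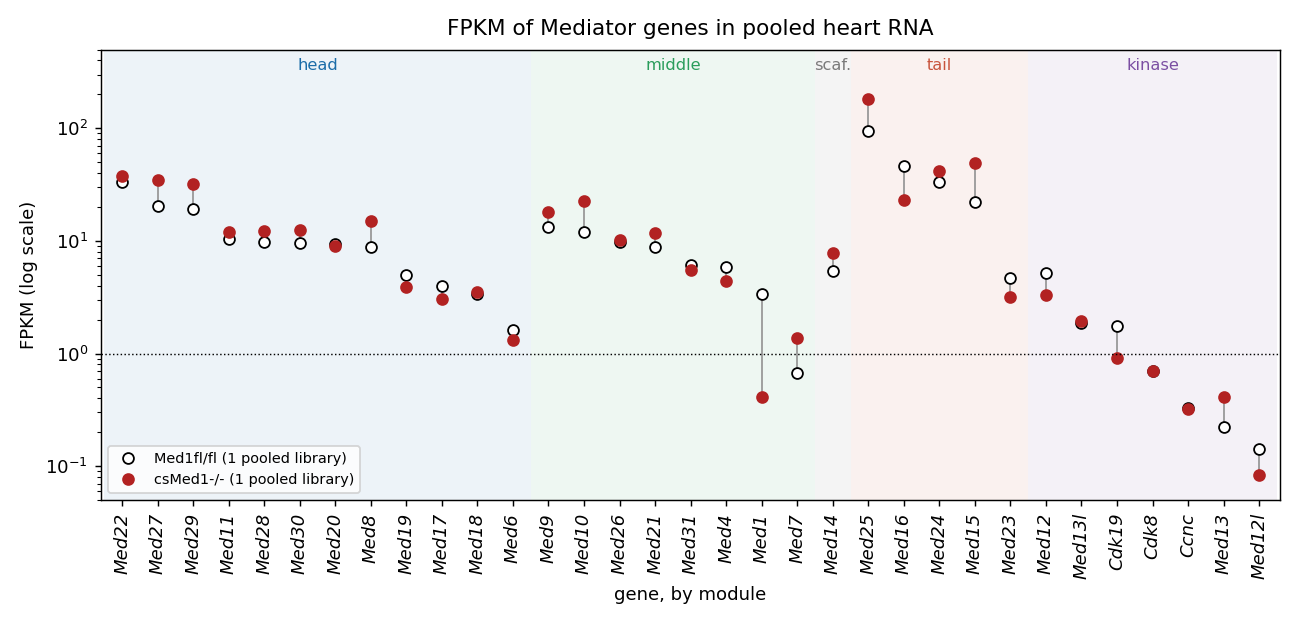
FPKM (log scale) of the 33 Mediator and kinase module genes in the 1 pooled library of each genotype, ordered by module and by the Med1fl/fl level. Open circles are Med1fl/fl, filled circles csMed1-/-, a line joins the values of a gene, and the dotted line marks 1 FPKM. Med1 shows the longest line, from 3.38 to 0.412 FPKM, and Med25 has the highest level in both libraries.

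The order of the members by level was largely shared between the libraries. Levels ran from 0.143 (Med12l) to 94.2 FPKM (Med25) in Med1fl/fl heart and from 0.0838 to 183 FPKM, with the same genes at the ends, in csMed1-/- heart. Spearman's rho between the libraries was 0.966 over the 33 members, a description of genes within the same 2 libraries. No gene moved by more than 7 places, and 27 moved by 3 or fewer. The largest moves were those of Med1 (24 to 31), Med16 (2 to 7) and Med8 (15 to 10). Med25, Med24, Med22, Med28, Cdk8 and Med12l kept their places (1, 3, 4, 12, 29 and 33). Levels of 10 FPKM or more were reached by 10 members in Med1fl/fl heart and by 15 in csMed1-/- heart.

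On the log2 ratio scale the median of the 29 members was 0.16, or 0.19 without Med1, against -0.07 over all 10489 genes, whose quartiles were -0.72 and 0.55. The members' median depended on the filter, at 0.05 with no filter on low values and 0.43 with 10 FPKM or more in either library. Of the 29 members, 18 had a ratio above 1 and 11 below. Inside the quartiles of all genes lay 19 members, above the upper quartile 7 and below the lower quartile 3. Over the 9206 genes with a mean FPKM in the range of the 29 members (1.02 to 139 FPKM), the median was -0.07, 17.0% were past 2-fold lower and 12.7% past 2-fold higher.

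**Figure D2:**
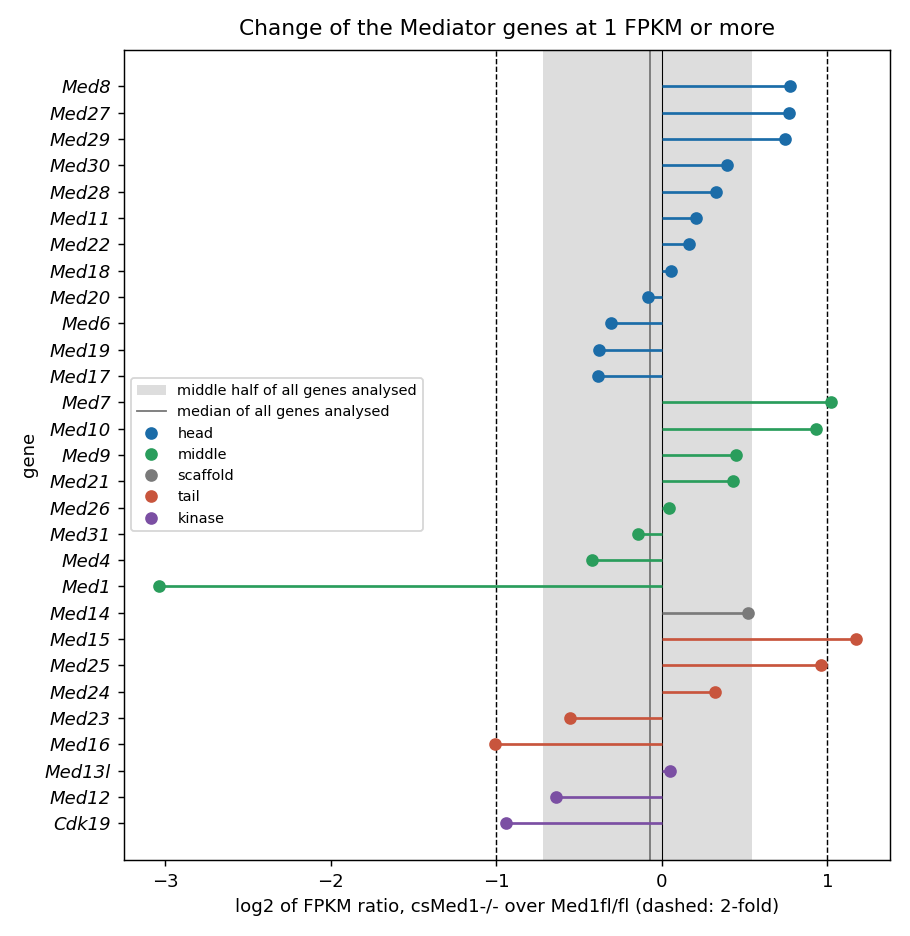
Log2 of the csMed1-/- to Med1fl/fl FPKM ratio of the 29 analysed members, 1 point per gene from 1 pooled library per genotype, coloured by module. The grey band spans the quartiles of all genes analysed (-0.72 to 0.55), the grey line is their median (-0.07), and dashed lines mark 2-fold. Med1 and Med16 lie beyond the lower line and Med7 and Med15 beyond the upper one.

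The head module, which grips the polymerase and the general factors around Med17, held no gene past 2-fold. Its 12 genes, all analysed, had a median log2 ratio of 0.19, with 8 above 1 as a ratio and 4 below. The highest ratios were those of Med8, Med27 and Med29. Med8, a head subunit that connects the fixed and movable jaws of the head, had 8.82 FPKM in Med1fl/fl and 15.1 FPKM in csMed1-/- heart (log2 ratio 0.77). Med27 had 20.3 and 34.5 FPKM (0.77), and Med29 had 19.0 and 31.9 FPKM (0.75). Both of these belong to a group of subunits that lie between head and tail. Of the other subunits of that kind, Med28 had 9.74 and 12.2 FPKM (0.33), and Med30 had 9.59 and 12.6 FPKM (0.39). All 4 of these genes thus had a higher value in csMed1-/- heart, none of them past 2-fold.

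The remaining head genes stood closer together. Med22 and Med11, which pair with each other at the base of the head, had 33.5 and 37.6 FPKM (log2 ratio 0.16) and 10.3 and 11.9 FPKM (0.21). Med18 and Med20, the pair that forms the movable jaw, had 3.36 and 3.49 FPKM (0.05) and 9.46 and 8.93 FPKM (-0.08). In neither pair did the partners differ by much in their ratios. Med20 shares 513 exonic bases with the same-strand gene Gm20517, and its value may be split with it. Med17, the central scaffold of the head, had 4.01 and 3.07 FPKM (-0.38). Med19, a subunit at the border of head and middle, had 5.03 and 3.87 FPKM (-0.38). Med6, which links head to middle, was the lowest of the head with 1.63 and 1.32 FPKM (-0.31). These were the head genes with the lowest ratios. Some studies place Med27 to Med30 in the tail, and with that grouping the 8 head genes left had a median log2 ratio of -0.015 and the 9 tail genes one of 0.39.

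The middle module, a long hinged arm to which Med1 belongs, covered the widest range of log2 ratios through Med1 (-3.04 to 1.02), and without Med1 a narrower one (-0.42 to 1.02) than the tail (-1.01 to 1.17). Its 8 genes had a median log2 ratio of 0.24, and the 7 without Med1 one of 0.43, with 5 above 1 as a ratio and 2 below. Med7, which forms the hinge with Med21, had 0.670 FPKM in Med1fl/fl and 1.36 FPKM in csMed1-/- heart (ratio 2.03, log2 ratio 1.02). Med21 itself had 8.81 and 11.8 FPKM (log2 ratio 0.43). Med7 was the lowest member of the module in Med1fl/fl heart, and at so low a level its place past 2-fold did not hold when a pseudocount of 0.1 FPKM was added. Its exons (chromosome 11, 46436925 to 46442721, plus strand) also share 609 bases with those of 2310031A07Rik on the opposite strand. The libraries were directional, but whether counting used the strand is not given in the sources used here.

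Among the other middle genes, Med10, which sits next to Med14 near the hook of the middle, came closest to 2-fold with 12.0 and 22.8 FPKM (log2 ratio 0.93). Its exons share 830 bases with the opposite-strand gene Gm26819. Med9, a partner of Med4, had 13.4 and 18.2 FPKM (0.45). Med4, with which Med9 forms the knob of the arm, had 5.84 and 4.37 FPKM (-0.42). These partners thus had ratios on either side of 1. Med31, a small and highly conserved subunit, had 6.11 and 5.54 FPKM (-0.14). Med26, the docking subunit for elongation factors that is found in the polymerase-bound form of Mediator, had 9.80 and 10.1 FPKM (0.05). Med14, the scaffold from which head, middle and tail hang, had 5.45 and 7.83 FPKM (0.52), just under the upper quartile of all genes.

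The tail, which receives most activators, held the highest levels of the complex and a gene past 2-fold in each direction. Its 5 genes gave 48.8% of the summed FPKM of the 33 members in Med1fl/fl heart and 53.0% in csMed1-/- heart, and 3 were above 1 as a ratio and 2 below. The higher share rests on Med25, since without it the other 4 tail genes gave 33.6% and 30.6% of the sum of the remaining 32 members. Med25 (chromosome 7, 44876765 to 44892712, minus strand), whose activator-binding domain is contacted by factors of the Etv family, ranked first in both libraries with 94.2 and 183 FPKM (log2 ratio 0.96). With ratios centred within bins of GC content, the log2 ratio of Med25 was 0.60. Med15 (chromosome 16, 17651208 to 17732891, minus strand), a target of SREBP and Smad factors, had 22.0 and 49.5 FPKM (1.17), and moved from place 5 to place 2. It had the highest ratio of all analysed members as deposited, but with ratios centred within bins of GC content its log2 ratio was 0.99, short of 2-fold and below those of Med7 (1.15), Med10 (1.13) and Med8 (1.08).

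Med16 moved the other way. Med16 (chromosome 10, 79894708 to 79908923, minus strand), a tail subunit bound by the antioxidant factor Nrf2, had 46.1 FPKM in Med1fl/fl and 22.9 FPKM in csMed1-/- heart (log2 ratio -1.01, ratio 0.497). By level it moved from place 2 to place 7. Med23 and Med24 share a tail lobe with Med16. Med24 had 33.7 and 42.1 FPKM (0.32), and Med23, the target of the mitogen-activated factor Elk1, had 4.68 and 3.19 FPKM (-0.55). The 3 genes of that lobe therefore had different ratios, with Med24 alone above 1. Med16 dropped back inside 2-fold when ratios were centred on the median of all genes (-0.94). With ratios centred within bins of GC content, its log2 ratio was -1.37.

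The kinase module had the lowest levels of the complex. Its 7 genes gave 2.49% of the members' summed FPKM in Med1fl/fl heart and 1.36% in csMed1-/- heart, with sums of 10.2 and 7.72 FPKM. Over the same libraries the summed FPKM of all 33 members went from 411 to 568, of which Med25 alone gave 94.2 and 183. Only 3 kinase module genes were analysed, with a median log2 ratio of -0.64. Over all 7 the median was -0.02, so the value rests on which genes reach 1 FPKM. The 3 analysed genes (Cdk19, Med12 and Med13l) all have reference transcripts longer than 5000 bases. With ratios centred within bins of transcript length their median was -0.36, the value of Med12, while Cdk19 had -0.75 and Med13l 0.325.

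Cdk8 and Cdk19 are the alternative kinases of the module. Cdk8 had 0.696 FPKM in Med1fl/fl and 0.697 FPKM in csMed1-/- heart (log2 ratio 0.00). Cdk19 (chromosome 10, 40339564 to 40483818, plus strand) had 1.75 and 0.913 FPKM (-0.94, ratio 0.521). Cdk19 was thus the higher of the pair in both libraries, by a smaller margin in csMed1-/- heart, where Cdk8 made up 43.3% of their sum instead of 28.4%. Cyclin C, which activates either kinase and also takes part in mitochondrial fission, had 0.326 and 0.321 FPKM (-0.02). The exons of Cdk19 share 268 bases with the opposite-strand gene Cdk19os.

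Med12, which activates the kinase, led the module with 5.21 FPKM in Med1fl/fl and 3.35 FPKM in csMed1-/- heart (log2 ratio -0.64). Its paralogue Med12l was the lowest of all members with 0.143 and 0.0838 FPKM (-0.77), and gave 2.66% and 2.44% of the pair's sum. Med12 shares 749 exonic bases with the same-strand gene Gm21986, and its value may be split with it. Med13, which tethers the module to Mediator, had 0.223 and 0.414 FPKM (0.89), below the level needed to be counted. Its paralogue Med13l had 1.88 and 1.94 FPKM (0.05), so that Med13l gave most of the pair's sum in both libraries and the Med13 share was 10.6% and 17.6%. Summed over each pair, the csMed1-/- to Med1fl/fl ratio was 0.658 for the kinases, 0.640 for the Med12 genes and 1.12 for the Med13 genes.

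**Figure D3:**
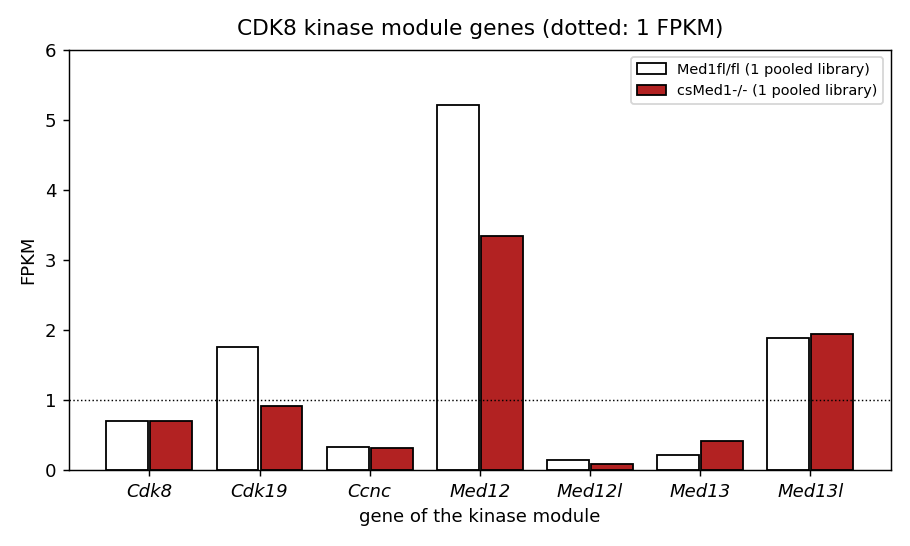
FPKM of the 7 kinase module genes in the 1 pooled library of each genotype, with open bars for Med1fl/fl and filled bars for csMed1-/-, from 0 on a linear axis. The dotted line marks 1 FPKM. Cdk8, Ccnc, Med12l and Med13 stay below it in both libraries, and Med12 has the tallest bars, at 5.21 and 3.35 FPKM.

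How many fragments stood behind these values could be estimated only roughly. Steps among the low FPKM values put 1 fragment in csMed1-/- heart at 0.722 times its worth in Med1fl/fl heart. If FPKM was scaled to mapped fragments alone, which is not stated, the csMed1-/- library was thus the deeper one. With the transcript lengths of the annotation and an assumed fragment length of 200 bases, and with FPKM scaled to mapped fragments alone, the members rested on between 68 fragments (Ccnc, Med1fl/fl) and 39908 (Med25, csMed1-/-). Med1 rested on about 1745 and 290 fragments and Med7 on about 104 and 288. The counting error of a log2 ratio was between 0.014 and 0.231 (SD) with a median of 0.072, and covers counting only, not differences between mice or library preparations. Even by counting alone, the ratios of Med7, Med16, Cdk19 and Med10 cannot be placed firmly on one side of 2-fold, since their distance from it is smaller than this error for Med7 (0.165), Med16 (0.0248), Cdk19 (0.0879) and Med10 (0.0716).

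The longest members had lower ratios than the shortest ones, without an even decline between them. Of the 11 members with reference transcripts of up to 1500 bases, 8 had a ratio above 1, with a median log2 ratio of 0.39. Of the 6 longer than 5000 bases, Med1 among them, 2 had a ratio above 1 (Med14 and Med13l), with a median of -0.60. Over all genes with a matched transcript the corresponding medians were 0.009 and -0.25, a difference in the same direction. Between these classes, the 8 members above 1500 and up to 3000 bases had a median of 0.049, against 0.009 over all genes. The 4 members above 3000 and up to 5000 bases had one of 0.326, against -0.101. Spearman's rho of log2 ratio and length was -0.363 over the 29 members, -0.292 without Med1 and -0.086 over 9470 genes. Points are genes of the same 2 libraries and share their depth and preparation. The GC content of the transcripts gave a rho of 0.104 over the members and of 0.206 over all genes. The part of length, GC content or RNA integrity in the ratios was not tested.

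**Figure D4:**
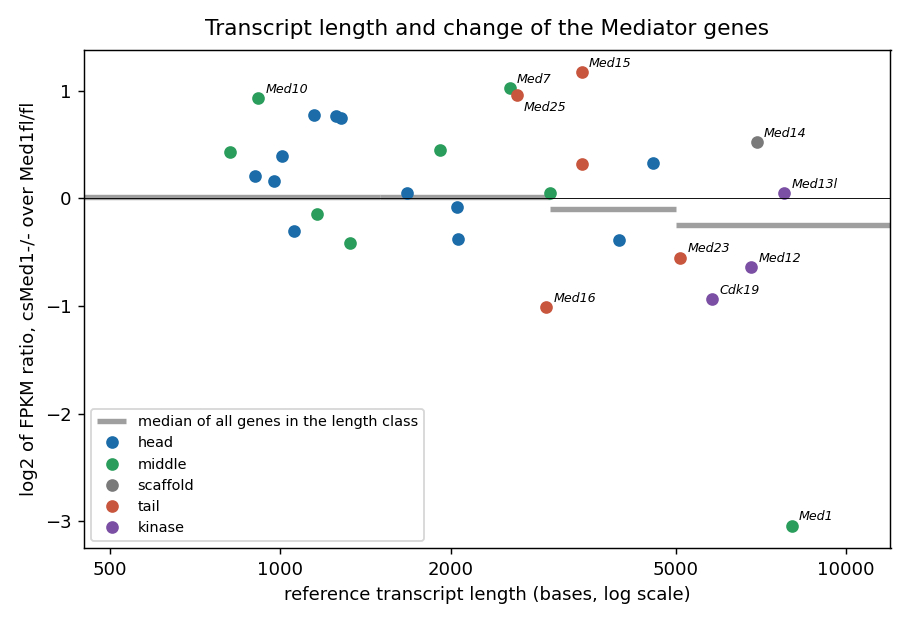
Log2 of the csMed1-/- to Med1fl/fl FPKM ratio against reference transcript length (bases, log scale) for the 29 analysed members, 1 point per gene, coloured by module. Grey bars are the medians of all genes of the same length class, from 0.009 for the shortest to -0.25 above 5000 bases. Short members lie mostly above 0, and of the 6 longest only Med14 and Med13l do.

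Promoter windows of 300 bases were searched for 7 short motifs on both strands (RefSeq, GRCm38.p6), and 28 of the 33 members had at least 1 window (32 windows in all). Members that were not analysed, such as Cdk8 and Ccnc, were counted too, while the percentages set against those of the members cover analysed genes only. CCGGAAG, the core bound by ETS factors, was found in 8 of the 28 (28.6%), namely Med4, Med6, Med10, Med14, Med15, Med17, Med18 and Med19, against 19.8% of the 7408 analysed genes with a window. GCATGCGC, the core of NRF1, was in 3 (10.7% against 5.9%), and CACGTG, the E-box, in 4 (14.3% against 11.8%). GGGGCGGGG, bound by SP1, was in 3 (10.7% against 25.8%), CCAAT in 11 (39.3% against 42.6%) and TATAAA in 3 (10.7% against 8.9%). AAGATGGCG, of YY1, was in 0 of the 28 members against 3.7%. The genes with the ETS core include some on either side of a ratio of 1, Med15 (log2 ratio 1.17) and Med4 (-0.42) among them. These are counts of letters and not of binding.

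The partners of Mediator at the promoter gave the following values, which are set beside those of Mediator without a test. Counts past 2-fold in these lists stand beside shares of 13.6% higher and 18.0% lower over all genes analysed. The lists are short, and whether any count differs from these shares was not tested. The 12 subunits of RNA polymerase II had a median log2 ratio of 0.29, and 2 were past 2-fold higher. Polr2a, the catalytic subunit whose tail repeats Mediator binds, had 16.2 FPKM in Med1fl/fl and 136 FPKM in csMed1-/- heart (3.07), and Polr2l, a small shared subunit, had 76.3 and 170.4 FPKM (1.16). The lowest were Polr2i (-0.43) and Polr2k (-0.38). Polr2a thus stood apart from Polr2b, the other large subunit, which had 8.41 and 6.57 FPKM (-0.36) and was chosen for this comparison after its value was seen. Of the general transcription factors, 25 of 32 were analysed, with a median of 0.17. Past 2-fold higher were Taf13 (1.60) and Gtf2b (1.02), which encodes TFIIB, and past 2-fold lower was Ccnh (-1.61), the cyclin of the TFIIH kinase, followed by Gtf2h2 (-0.71) within 2-fold.

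Elongation factors, which Med26 and the kinase module help to recruit, had a median of 0.43 over 12 analysed genes of 18. Ell2 (0.922 to 3.62 FPKM, log2 ratio 1.97) and Aff4 (0.457 to 1.16 FPKM, 1.35), both of the super elongation complex, were past 2-fold higher, and Cdk12 (-0.42) and Cdk13 (-0.33) were the lowest. Of the 6 cohesin genes, whose ring holds Mediator-bound enhancers to promoters, 2 were analysed, Smc1a (-0.17) and Rad21 (-0.72). The others were below 1 FPKM in both libraries and had ratios above 1, namely Nipbl (1.63), Stag2 (1.39), Stag1 (0.95) and Smc3 (0.14).

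Coactivators that act together with Med1 had the lowest median of these lists, -0.76 over 9 genes, with 8 of 9 below 1 as a ratio. Past 2-fold lower were Ppargc1a, at 4.41 and 0.953 FPKM (-2.21), Ppargc1b, at 4.87 and 1.76 FPKM (-1.47), and Ncoa1 (-1.04), while Crebbp (0.06) and Ncoa2 (-0.14) had the highest ratios. The RNA-Seq ratio that the study lists for Ppargc1b is lower than the deposited FPKM give, while the one it lists for Ppargc1a is close to the value here. Among activators known to contact Med1, 9 of 13 were analysed with a median of -0.28. Ppara, the nuclear receptor for fatty acids, had 12.4 and 1.66 FPKM (-2.90), the only one past 2-fold, and its partner Rxra followed with 36.4 and 24.0 FPKM (-0.60). Gata4 (0.07) and Rara (0.16) were the highest. Activators that contact other subunits had a median of 0.18 over 10 of 12 genes. Etv4 (0.438 to 3.70 FPKM, 3.08) and Etv5 (12.8 to 31.6 FPKM, 1.30), which bind Med25, were past 2-fold higher, Etv1 (1.01 to 0.367 FPKM, -1.46) was past 2-fold lower, and Smad3 (-0.70) was the next lowest.

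**Figure D5:**
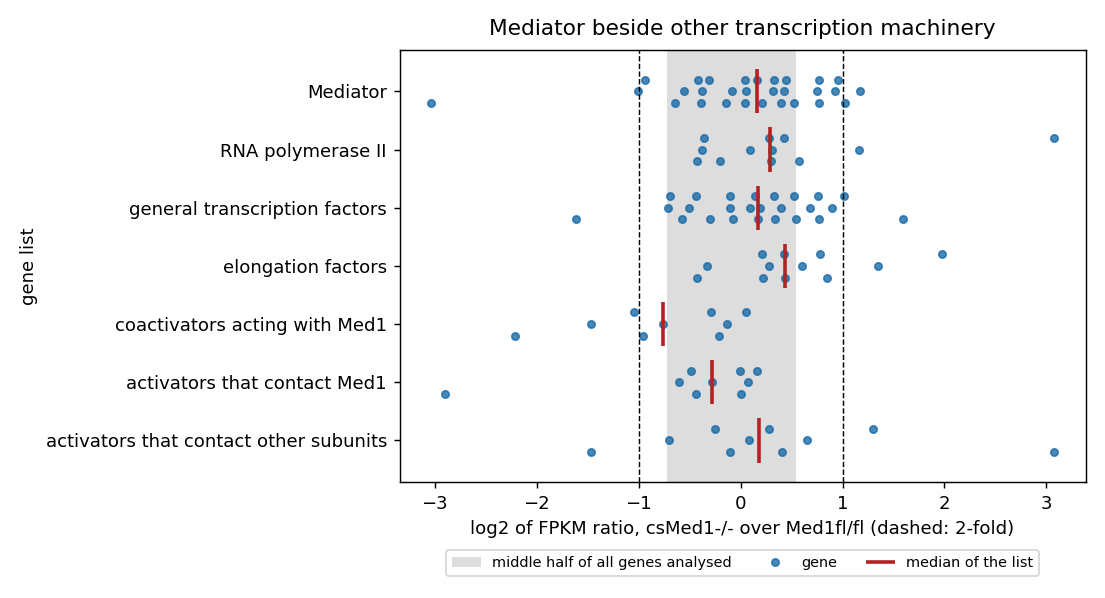
Log2 of the csMed1-/- to Med1fl/fl FPKM ratio of Mediator and of 6 lists of its partners, 1 blue point per analysed gene and a red bar for the median of each list. The grey band spans the quartiles of all genes analysed and dashed lines mark 2-fold. The Mediator median (0.16) lies near that of the general transcription factors (0.17), the coactivators acting with Med1 have the lowest median (-0.76), and Polr2a and Etv4 lie farthest to the right.

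Some cell type markers differed between these 2 bulk libraries, in which fewer cells of a type and less RNA per cell cannot be told apart. Their counts past 2-fold stand beside 18.0% lower and 13.6% higher over all genes analysed. The label of heart tissue held by its markers, with Tnnt2, which encodes cardiac troponin T, at 2280.4 and 1119 FPKM. Of 6 cardiomyocyte markers, 4 were analysed and all 4 were below 1 as a ratio, with a median log2 ratio of -0.78 and 2 past 2-fold lower. Actc1 was listed at 0 in Med1fl/fl and at 9189 FPKM in csMed1-/- heart, and this 0 may be a failed estimate and is not read as absence of cardiac actin. No value of Myh6 was used here for either library. The 4 analysed cardiomyocyte markers summed to 13981 and 3636 FPKM, most of it from Tnni3, which encodes cardiac troponin I and had 10283 and 1537 FPKM. Without Tnni3 the sums were 3699 and 2099 FPKM, and Mybpc3 and Ttn had ratios of 0.691 and 0.699. The 7 fibroblast markers summed to 492 and 1168 FPKM, with 3 past 2-fold higher (Col1a1, Col1a2 and Postn) and 1 lower (Lum, log2 ratio -1.11). Without the collagen genes Col1a1, Col1a2 and Col3a1 the other 4 summed to 128 and 132 FPKM, most of it from Dcn (114 and 96.6 FPKM, log2 ratio -0.24). These 4 did not share a direction, with -0.02 for Pdgfra, -1.11 for Lum and 4.13 for Postn (1.57 and 27.4 FPKM). Endothelial markers (5 of 5 analysed) summed to 363 and 244 FPKM with 2 past 2-fold lower, leukocyte markers (5 of 6) to 245 and 230.1 FPKM with none, and smooth muscle and pericyte markers (5 of 5) to 660.4 and 464 FPKM with 1 in each direction. Of the erythroid markers only Alas2 was analysed, at 35.8 and 82.1 FPKM. The part of cell composition in the ratios of the Mediator genes was not tested.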

How the data were processed

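Directional single-end libraries were prepared from oligo-dT enriched heart mRNA. According to the methods, the authors aligned the reads to mm10 (the assembly also called GRCm38) by TopHat (v2.0.8b). With Cufflinks (v2.1.1) and the UCSC gene annotation they then derived the FPKM that were deposited. The submitters' processing notes also list STAR 2.4.0h without its role, and how the libraries were scaled is not stated. The FPKM were used as deposited, and 0 further columns of values were left aside.

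Each of the 2 libraries has 23424 rows with 22882 symbols, and rows sharing a symbol were summed. Each gene's log2 ratio is that of csMed1-/- to Med1fl/fl FPKM, with no pseudocount, for genes above 0 in both and at 1 FPKM or more in either. Past 2-fold was the only call, since 1 library per genotype allows no test. Summed FPKM were 780366 and 716365. FPKM is per kilobase, so levels of different genes were compared on that scale.

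Positions, lengths and GC content came from GENCODE M21 (GRCm38) by symbol, using the protein-coding transcript with a consensus coding sequence (CCDS) and the longest coding sequence. A transcript was found for 9470 (90.3%) of 10489 genes. Named are all members, the 2 highest and 2 lowest ratios of each partner list, every RNA polymerase II gene past 2-fold, and cell type markers. Ncoa1, the third coactivator past 2-fold, and Polr2b were added after their values were seen. The members, lists and this rule were chosen with earlier results of these data known. The computation was tested on simulated data. Software was Python 3.11.15, pandas 2.3.3, numpy 2.4.6, matplotlib 3.10.9 and scipy 1.17.1 (seed 1).

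The alternatives were pseudocounts of 0.1 and 1 FPKM, centring and scaling, other filters and thresholds, Med27 to Med30 in the tail, and the members without Med1. No replicate could be left out.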

Additional observations from a re-analysis of the deposited data

How the results depend on the processing

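Past 2-fold, 2 members were lower and 2 higher. Med1 stayed past it under every alternative in which it passed the filter on low values, but it did not pass the filters of 1 FPKM in both libraries or 10 FPKM in either, where the 1 lower gene left was Med16. The lower count became 1 with a pseudocount of 1 FPKM, with ratios centred on the median of all genes, with scaling to the 75th percentile, with both of these filters, with a 4-fold threshold and with centring within 10 bins of transcript length. The higher count became 1 with pseudocounts of 0.1 and 1 FPKM and with both stricter filters (Med15 in each), and 0 with a 4-fold threshold. It became 3 with centring on the median and scaling to the 75th percentile, where Med25 joined, and with centring by GC content, where Med8 and Med10 joined and Med15 left. At 1.5-fold, 4 members were lower and 7 higher. The median log2 ratio of the kinase module went from -0.64 to -0.0201 with no filter on low values, since all 7 genes then entered. That of all members went from 0.16 to 0.0533 with no filter, and to 0.4277 with the filter of 10 FPKM in either library. The log2 ratio of Med1 went from -3.04 to -1.63 with a pseudocount of 1 FPKM. The other 231 of 232 recomputed gene values stayed within 1.5-fold. Their sign changed in 6 cases, for Med13l, Med17, Med20, Med22 and Med26 with centring within 10 bins of GC content and for Med18 with centring by length. Both of these centrings, and the sums without Med25, Tnni3 or the collagen genes, were chosen after seeing the data, and where no construction is named the cause was not tested. The scalings shifted all genes by -0.014 to 0.0709 (log2). No paired analysis was possible because each genotype has 1 pooled library without a replicate number, and for the same reason no library could be left out. Depth limits the low members most, above all Ccnc, Med12l, Med13 and Cdk8.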
